A study of Sus scrofa with 6 samples.

Results

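The genes described here were members of the BCL2 family, whose proteins set the threshold for cell death at the mitochondrion. They were taken as the rows of the deposited table whose symbol was BCL2, BCL2L1, BCL2A1, MCL1, BAX, BAK1, BAD, BID, BCL2L11 or PMAIP1. Of these 10 symbols, 7 were in the symbol column of the table of 11564 genes (BCL2, BCL2L1, MCL1, BAX, BAK1, BAD and BID), and all 7 passed the filter on low values. PMAIP1 was found through its identifier in a row that carries no symbol, and it is given apart from the 7 members. BCL2A1 and BCL2L11 were matched by neither route and were not analysed here. PBMCs (the lymphocytes and monocytes separated from blood) had been taken from 6 Yorkshire pigs at 6 months of age. Of these, 3 libraries were labelled wild type (WT) and 3 were labelled leptin-overexpressing (below, leptin libraries). The transgene carried the pig leptin open reading frame, and the founder embryos were made by nuclear transfer from transfected fetal fibroblasts. By the study's text the transgene was under the leptin promoter, and its methods describe a vector that also carries a green fluorescent protein. Expression was given as FPKM, in which fragment numbers are corrected for the length of the transcript and the size of the library, so levels of different genes can be set side by side. The question addressed was whether leptin overexpression goes with a change in the RNA of these survival and death genes in blood mononuclear cells.

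In this family, BCL2, BCL2L1 (the gene of BCL-XL) and MCL1 encode the guardians, which hold the death proteins in check. BAX and BAK1 encode the effectors, which open the outer mitochondrial membrane and release cytochrome c. BAD, BID and PMAIP1 (the gene of NOXA) encode BH3-only proteins, which relay stress or receptor signals by binding guardians or effectors. Lymphocytes and myeloid cells are known to lean on different guardians, and MCL1 is a short-lived protein whose level follows its synthesis closely.

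The labels were first read against LEP, the gene of leptin (ENSSSCG00000016588). LEP was at 50.0 FPKM in WT replicate 1, listed at 0 in WT replicate 2 and at 0.118 in WT replicate 3, and it was listed at 0 in leptin replicate 1 and at 18.3 and 39.3 FPKM in leptin replicates 2 and 3. LEP was thus high in WT replicate 1 but listed at 0 in leptin replicate 1. The members are therefore also given without these 2 libraries. Leptin was shown by the paper in pancreas and serum, and LEP RNA in PBMCs is not described in its text. A listing at 0 in leptin replicate 1 thus need not conflict with its label. The paper reports PCR that separated leptin from control pigs, expression of the transgene, and raised phospho-STAT3 in leptin pigs. These were measured by genotype and were not matched to the libraries here. Whether labels or columns were exchanged was not tested. Every direction below is that of the labels as given and could differ if they were exchanged. The Y-linked genes DDX3Y and USP9Y were at 3.55 FPKM or more in WT replicates 1 and 2 and leptin replicate 1 and at 0.0092 FPKM or less in the other 3 libraries. The labels do not give the sex of the animals, nor whether they were clones or offspring of clones. The study's supplementary protocol describes the fetus that supplied the fibroblasts as male. DDX3Y and USP9Y were nearly absent in leptin replicates 2 and 3, the leptin libraries with LEP. Whether those animals were clones of that fetus was not tested. T cell markers (10 of 10 listed genes found), B cell markers (7 of 10) and monocyte markers (8 of 10) were present in every library, as the label PBMC calls for. Neutrophil markers (7 of 12 found) summed to 3528 FPKM in WT replicate 1 and to between 412 and 1269 in the other libraries. Total FPKM ran from 444888 to 449653 in the WT and from 467276 to 503140 in the leptin libraries, so the labels did not overlap in it.

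MCL1 was the most abundant member and BCL2 the least. MCL1 (ENSSSCG00000006652, chromosome 4 from 107809260 to 107811482 as the table gives it) was at 198.1, 156.4 and 158.1 FPKM in WT replicates 1 to 3 and at 140.2, 170.0 and 183.8 FPKM in leptin replicates 1 to 3. The groups overlapped, with the highest value in WT replicate 1 and the lowest in leptin replicate 1. Both are left out in the fits without the replicate 1 libraries. In every library MCL1 lay between percentiles 95.6 and 96.8 of all genes in the table. BCL2 (ENSSSCG00000004895, chromosome 1 from 175695536 to 175696139) was at 2.35, 2.08 and 2.56 FPKM in the WT libraries and at 2.84, 0.930 and 2.48 FPKM in the leptin libraries. Leptin replicate 2 stood under the other 5 libraries and leptin replicate 1 above them. The highest BCL2 value was 3.06 times the lowest, the widest span of the 7 members. BCL2L1 (ENSSSCG00000007229, chromosome 17 from 40303940 to 40304555) was at 15.6, 17.1 and 17.6 FPKM in the WT libraries and at 18.1, 14.3 and 18.6 FPKM in the leptin libraries. It was the steadiest member, with a highest value 1.30 times the lowest, and its lowest library was again leptin replicate 2.

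The BCL2 and BCL2L1 levels rest on short gene models. BCL2 spans 604 bp in the table and BCL2L1 616 bp. Only 0.860% of the 7328 protein-coding genes in the table span 604 bp or less and 0.901% span 616 bp or less, against a median of 19030 bp. What these models leave out of the transcripts was not tested, and the level of BCL2 against MCL1 depends on it.

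Of the effectors, BAX was well above BCL2 and BCL2L1, and BAK1 was close to BCL2L1. BAX (ENSSSCG00000003144, chromosome 6 from 50100686 to 50106251) was at 38.8, 51.5 and 60.1 FPKM in the WT libraries and at 62.2, 60.6 and 55.1 FPKM in the leptin libraries. WT replicate 1 was the lowest of the 6, and WT replicate 3 lay among the leptin values. BAK1 (ENSSSCG00000001516, chromosome 7 from 34279880 to 34288116) was at 18.4, 18.3 and 20.2 FPKM in the WT libraries and at 19.7, 25.7 and 21.3 FPKM in the leptin libraries. Its groups overlapped through WT replicate 3 and leptin replicate 1, and leptin replicate 2 was the highest library.

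Among the BH3-only genes, BID (ENSSSCG00000000769, chromosome 5 from 72118716 to 72143297), whose protein links death receptors to the mitochondrion once caspase-8 has cut it, had the largest SD of log2(FPKM + 1) over the 6 libraries. BID was at 71.4, 129.3 and 61.1 FPKM in the WT libraries and at 62.3, 86.5 and 63.2 FPKM in the leptin libraries. Both replicate 2 libraries were the highest, WT replicate 2 well above the rest, and the other 4 lay close together. BAD (ENSSSCG00000013033, chromosome 2 from 6897944 to 6909698), whose protein is held inactive by growth factor signalling, was at 27.3, 20.5 and 24.5 FPKM in the WT libraries and at 26.9, 35.3 and 24.8 FPKM in the leptin libraries. Its lowest library was WT replicate 2 and its highest leptin replicate 2, and the other 4 of both labels were intermixed. PMAIP1 (ENSSSCG00000026454, chromosome 1 from 178852778 to 178857414), whose protein binds MCL1, was at 24.0, 39.2 and 33.1 FPKM in the WT libraries and at 34.8, 51.1 and 46.0 FPKM in the leptin libraries. Leptin replicates 2 and 3 were above all WT libraries, while leptin replicate 1 was under WT replicate 2.

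**Figure D1:**
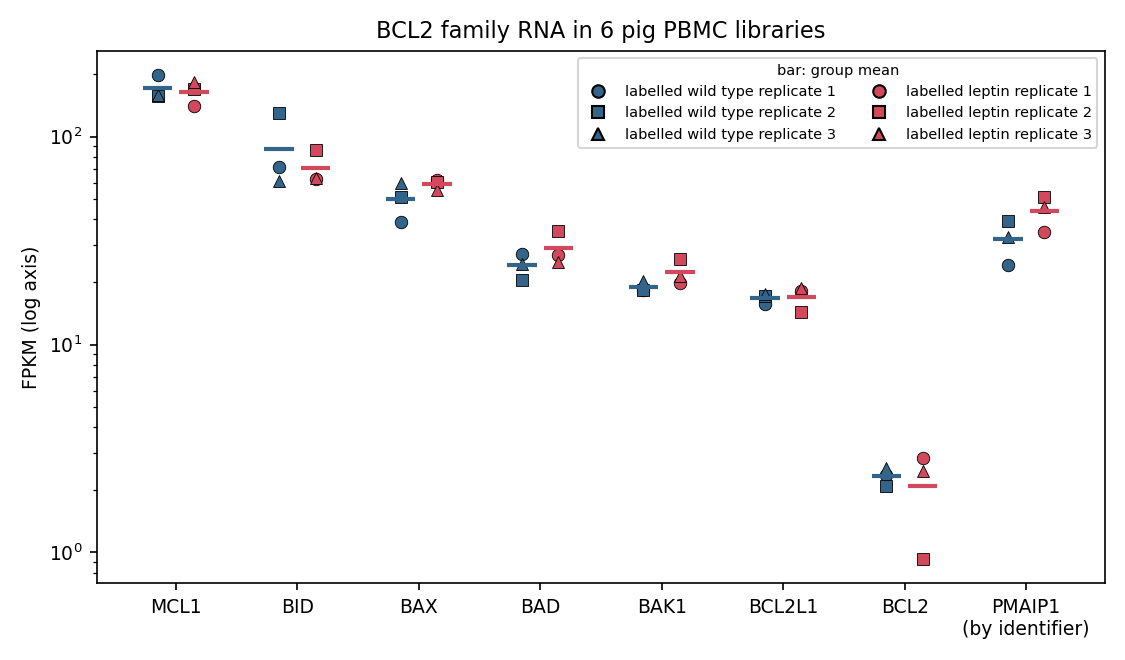
FPKM (log axis) of the 7 members, ordered by mean level, and of PMAIP1 in each of the 6 libraries. Blue marks libraries labelled wild type, red those labelled leptin, the marker shape the replicate number and the bar the group mean. MCL1 lies between 140.2 and 198.1 FPKM and BCL2 between 0.930 and 2.84 FPKM, and the groups overlap for every gene.

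The order of the levels was the same in all 6 libraries: MCL1, BID, BAX, BAD, BAK1, BCL2L1 and BCL2. The lowest MCL1 value (140.2 FPKM) was above the highest BID value (129.3 FPKM). BAX and BAD, and BCL2L1 and BCL2, were likewise separate over all libraries. The spreads of BID and BAX overlapped, as did those of BAD and BAK1 and of BAK1 and BCL2L1, although within each library the order held. Mean BCL2L1 was 7.66 times mean BCL2, and mean MCL1 was 2.13 times mean BID. Over the 6 libraries, the SD of log2(FPKM + 1) was 0.42 for BID and 0.36 for BCL2, at percentiles 89.0 and 83.5 of the 10735 genes tested. It was 0.14 for BCL2L1, at percentile 15.2.

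No member differed between the labelled genotypes beyond the spread between libraries. The test was that of limma, fitted to log2(FPKM + 1) of the 10735 genes that reached 1 FPKM in 3 or more libraries, with Benjamini-Hochberg adjustment, and differences are leptin minus WT. Of the 7 members, 0 had an adjusted p under 0.05 (background 0.00932% of all genes tested) and 0 had an unadjusted p under 0.05 (background 3.18%, of which 1.98% higher and 1.19% lower). The groups did not overlap for 0 of the 7 members, against 7.63% of all genes tested (5.0% higher and 2.63% lower). In the direction of their means 4 members were higher and 3 lower, where 6772 of all genes tested were higher and 3963 lower, with a median log2 difference of 0.014 beside 0.059 over all genes tested. Nothing in the labels says how the animals were related, and p-values measure the spread between these 6 libraries.

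Both effectors and BAD had positive differences and wide intervals. The log2 difference of BAX was 0.26 (95% interval -0.17 to 0.69, adjusted p = 0.993, limma), with 50.1 ± 10.7 FPKM (SD, n = 3) in the WT and 59.3 ± 3.70 FPKM (SD, n = 3) in the leptin libraries. Without WT replicate 3 it was 0.40, where the groups did not overlap for BAX, nor for 26.8% of all genes tested. The BAX difference was 0.089 without WT replicate 1 and 0.054 without both replicate 1 libraries. That of BAK1 was 0.21 (95% interval -0.14 to 0.56, adjusted p = 0.993, limma), from 19.0 ± 1.10 to 22.2 ± 3.06 FPKM (SD, n = 3 each). That of BAD was 0.25 (95% interval -0.18 to 0.68, adjusted p = 0.993, limma), from 24.1 ± 3.41 to 29.0 ± 5.56 FPKM (SD, n = 3 each). Without both replicate 1 libraries the differences were 0.27 for BAK1 and 0.39 for BAD, with no overlap between the remaining libraries in either. In that comparison of 2 against 2 libraries, groups did not overlap for 25.9% of all genes tested. Without leptin replicate 2, the library highest for both, the differences were 0.10 for BAD and 0.11 for BAK1, and without WT replicate 2 that of BAD was 0.14. With median-of-ratios scaling the differences shrank to 0.19 for BAX, 0.19 for BAD and 0.15 for BAK1. With DDX3Y in the fit they were 0.21 for BAX, 0.22 for BAD and 0.15 for BAK1.

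The guardians gave smaller differences, and their signs rested on single libraries. The log2 difference of MCL1 was -0.053 (95% interval -0.45 to 0.34, adjusted p = 0.993, limma), from 170.9 ± 23.6 to 164.7 ± 22.3 FPKM (SD, n = 3 each). It turned positive, at 0.17, without both replicate 1 libraries. There MCL1 no longer overlapped between groups, nor did 25.9% of all genes tested. The log2 difference of BCL2L1 was 0.014 (95% interval -0.34 to 0.37, adjusted p = 0.998, limma), from 16.8 ± 1.05 to 17.0 ± 2.35 FPKM (SD, n = 3 each), and it was -0.081 without both replicate 1 libraries. Median-of-ratios scaling gave -0.049 for BCL2L1, where it also moved the median of all genes from 0.059 to 0.0022. That of BCL2 was -0.17 (95% interval -0.76 to 0.42, adjusted p = 0.993, limma), from 2.33 ± 0.241 to 2.08 ± 1.02 FPKM (SD, n = 3 each). With a pseudocount of 0.1 in place of 1 the BCL2 difference was -0.29 (SE 0.39 in place of 0.26), and with DDX3Y in the fit it was -0.10. Without leptin replicate 2 the BCL2 difference was 0.14, and without both replicate 1 libraries it was -0.35. As folds of FPKM + 1, the intervals ran from 0.733 to 1.27 for MCL1 and from 0.788 to 1.29 for BCL2L1. For BCL2 the interval ran from 0.589 to 1.34. The added 1 shrinks the folds of BCL2, the least abundant guardian, the most, so its interval in FPKM is wider than printed here. A given change in BCL2 was thus harder to detect than the same change in MCL1 or BCL2L1.

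The BH3-only genes pointed in different directions. The log2 difference of BID was -0.24 (95% interval -0.90 to 0.42, adjusted p = 0.993, limma), from 87.3 ± 36.8 to 70.7 ± 13.7 FPKM (SD, n = 3 each). Without WT replicate 2 it was 0.079, so its sign rested on that library, and without both replicate 1 libraries it was -0.26. The BID difference was -0.46 without WT replicate 3 and -0.39 without leptin replicate 2. PMAIP1 had the largest difference of the 8 genes, at 0.45 (95% interval -0.062 to 0.96, adjusted p = 0.993, unadjusted p = 0.0774, limma), from 32.1 ± 7.62 to 43.9 ± 8.35 FPKM (SD, n = 3 each). The PMAIP1 difference was 0.26 without WT replicate 1 (unadjusted p = 0.242, limma) and 0.42 without both replicate 1 libraries. Its unadjusted p was under 0.05 with the replicate block (0.0328), without WT replicate 2 (0.0340) and without leptin replicate 1 (0.0359, limma), fits in which 3.58%, 2.6% and 2.34% of all genes tested were under 0.05. In every other fit the unadjusted p of PMAIP1 was above 0.05. With median-of-ratios scaling the difference was 0.39 (unadjusted p = 0.137, limma). With DDX3Y in the fit it was 0.36 (unadjusted p = 0.174, limma). The exact two-sided permutation test gave p = 0.2 for PMAIP1, BAX and BAK1 and 0.4 to 0.9 for the other members, where 0.1 is the smallest that 3 libraries against 3 allow.

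**Figure D2:**
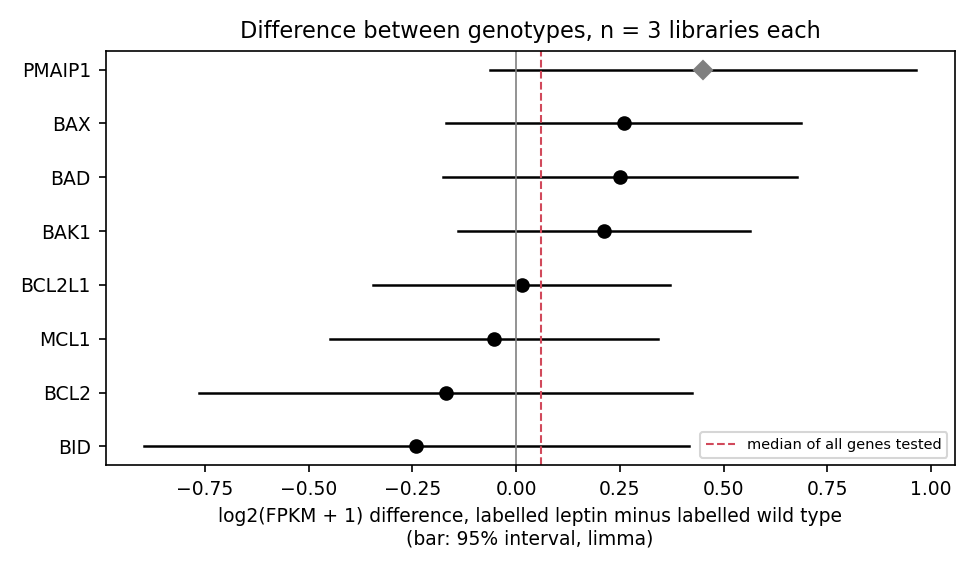
Difference in log2(FPKM + 1), leptin minus WT, for the 7 members (circles) and PMAIP1 (grey diamond), with 95% intervals from limma, n = 3 libraries each. The dashed line is the median of all genes tested (0.059). Every interval holds 0, and PMAIP1 comes closest to leaving it out.

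The libraries differed from each other in a way the labels do not give. Leptin replicate 2 had the lowest BCL2 and BCL2L1 and the highest BAD, BAK1 and PMAIP1 of the 6. WT replicate 1 had the highest MCL1 and the lowest BAX and PMAIP1. WT replicate 2 had the highest BID and the lowest BAD. Some cell type marker sums were also at their lowest or highest in these libraries. The summed T cell markers were lowest in leptin replicate 2 (718 FPKM) and next lowest in WT replicate 2 (830 FPKM), with 1096 to 1265 FPKM in the other 4 libraries. The 2 libraries with the least T cell marker RNA were those with the most BID. The summed NK and cytotoxic markers (8 of 10 found) were also lowest there, at 280 FPKM in WT replicate 2 and 410 FPKM in leptin replicate 2, against 489 to 671 FPKM. Monocyte marker sums were highest in leptin replicate 2 (1467 FPKM) but lowest in WT replicate 2 (797 FPKM). Single monocyte markers differed in this. CST3, with 42% of the summed FPKM over all libraries, and LYZ were lowest in WT replicate 2. VCAN and the CD68 row ENSSSCG00000017956 were highest in WT replicate 2 (29.7 and 46.2 FPKM). The remaining monocyte marker rows were at neither end there. In WT replicate 1, B cell marker RNA was lowest (410 FPKM against 572 to 757) and the neutrophil marker sum highest. S100A12, S100A9 and S100A8 made up most of that neutrophil sum and, like LTF and MMP8, were highest in WT replicate 1. MMP9 was highest in leptin replicate 2 and ELANE in leptin replicate 1. The part of cell composition in the levels of the members was not tested. In bulk RNA, fewer cells of a type and less RNA per cell cannot be told apart.

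By label, none of these marker sums separated the groups. T cell markers summed to between 830 and 1109 FPKM in the WT and between 718 and 1265 FPKM in the leptin libraries, and monocyte markers to between 797 and 1231 and between 1099 and 1467 FPKM. Platelet markers (7 of 8 found) ran from 249 to 573 and from 198 to 554 FPKM, with GP1BB listed at 0 in 4 libraries. Erythroid markers (3 of 8 found, mainly HBB) ran from 25.1 to 218.9 and from 21.8 to 102.6 FPKM, and plasma cell markers (6 of 7 found) from 399 to 661 and from 334 to 550 FPKM.

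**Figure D3:**
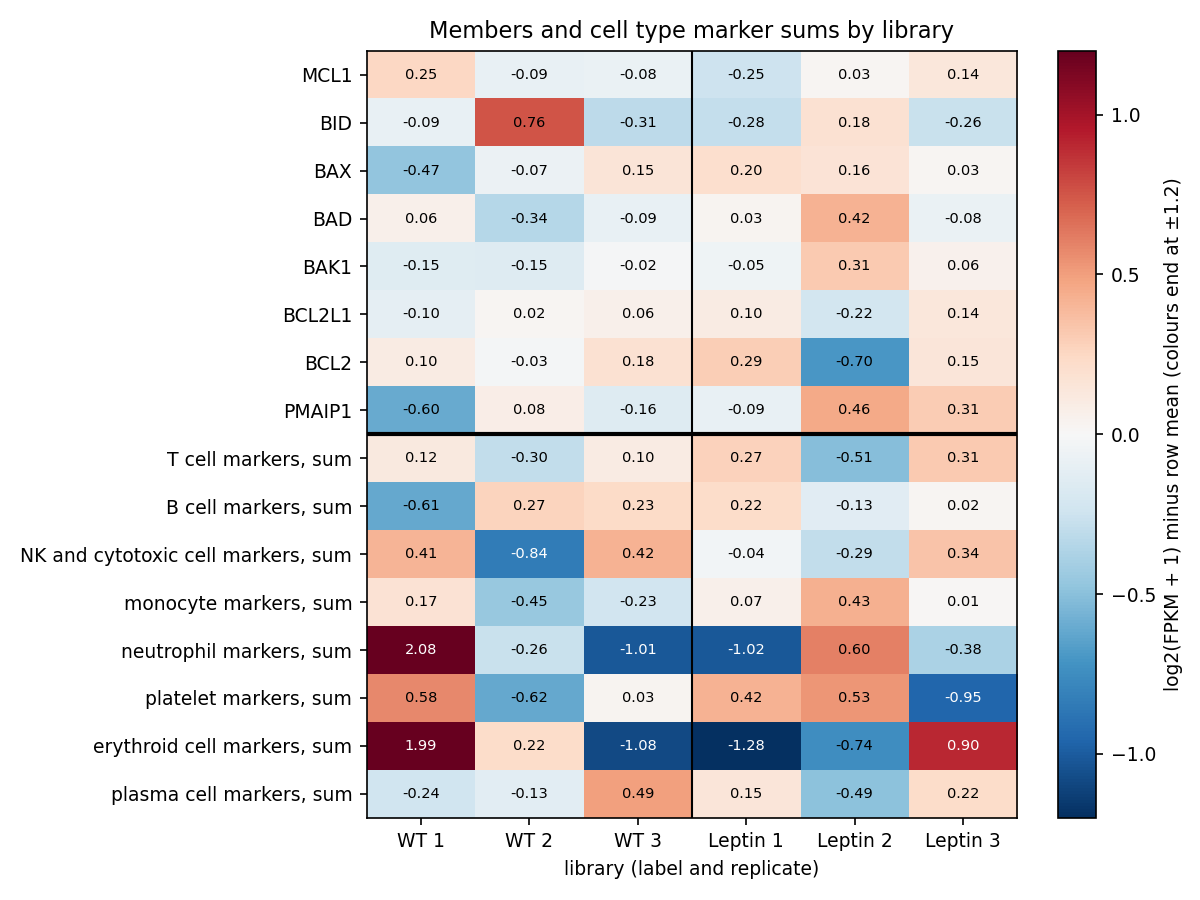
Each cell gives log2(FPKM + 1) minus the mean of its row over the 6 libraries, for the members and PMAIP1 (above the line) and for the summed FPKM of each cell type marker list (below it). Columns are libraries, WT to the left. Leptin replicate 2 is low for BCL2 (-0.70) and for T cell markers (-0.51), and BID is highest in WT replicate 2 (0.76).

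For BID, the member with the largest SD of log2(FPKM + 1), the genes most similar in profile were ASRGL1, RNF144B, ITGAV, TMEM156 and PHF11. Likeness was the root mean square difference of centred log2(FPKM + 1) over the 6 libraries, which was 0.076 for ASRGL1, 0.082 for RNF144B, 0.11 for ITGAV, 0.12 for TMEM156 and 0.13 for PHF11. ASRGL1 was at 11.1, 19.9 and 9.22 FPKM in the WT libraries and at 9.25, 15.2 and 9.13 FPKM in the leptin libraries. Like BID, all 5 were highest in WT replicate 2 and next highest in leptin replicate 2. These profiles share their 6 libraries and were the closest of 10735 genes, so their likeness follows from how they were picked.

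Ratios of partners within a library were dominated by leptin replicate 2 and WT replicate 1. The log2 ratio of BCL2 to BAX, a guardian against an effector, was -4.04, -4.63 and -4.55 in the WT libraries and -4.45, -6.03 and -4.48 in the leptin libraries. Leptin replicates 1 and 3 fell inside the WT values and leptin replicate 2 far under them. That low ratio rests on a BCL2 value of 0.930 FPKM over the short gene model. The log2 ratio of MCL1 to PMAIP1, a guardian and its BH3-only partner, was 3.04, 1.997 and 2.26 in the WT libraries and 2.01, 1.74 and 1.999 in the leptin libraries. WT replicate 1 was apart from the other 5, which lay within 1.74 to 2.26. The log2 ratio of BCL2L1 to BAD was -0.81, -0.26 and -0.48 in the WT libraries and -0.57, -1.30 and -0.41 in the leptin libraries, again with leptin replicate 2 the lowest. The log2 ratio of BCL2 to MCL1 was -6.40, -6.23 and -5.95 against -5.62, -7.52 and -6.21. The groups overlapped in the ratios of BCL2 to BAX, BCL2L1 to BAD and BCL2 to MCL1, and in that of MCL1 to PMAIP1 WT replicate 2 lay under leptin replicate 1. Leptin minus WT, the mean log2 ratio of BCL2 to BAX differed by -0.58, and by -0.054 without leptin replicate 2. That of BCL2 to MCL1 differed by -0.26, and by 0.27 without leptin replicate 2. For BCL2L1 to BAD the difference was -0.24, and 0.025 without leptin replicate 2. For MCL1 to PMAIP1 it was -0.52, and -0.21 without WT replicate 1. No test was made on ratios.

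**Figure D4:**
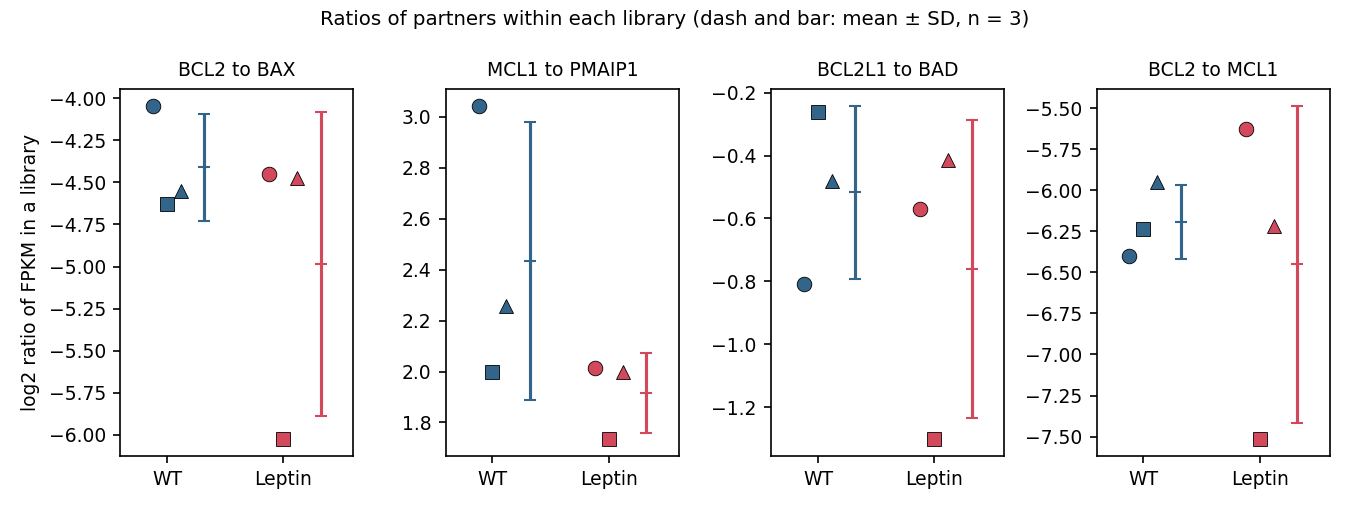
The log2 ratio of FPKM of 2 family genes in each library, by label; circles, squares and triangles are replicates 1, 2 and 3, and the dash with its bar is mean ± SD (n = 3). Each panel has its own axis. Leptin replicate 2 is the lowest library in each panel, and WT replicate 1 the highest for BCL2 to BAX and MCL1 to PMAIP1.

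The rest of the pathway was followed through 5 lists of 71 symbols, of which 48 genes were tested. None of the 48 had an unadjusted p under 0.05 (0 genes by limma, background 3.18%), 0 had an adjusted p under 0.05, and 1 did not overlap between the groups (background 7.63%). Of the 48, 22 were higher and 26 lower, with a median log2 difference of -0.014 beside 0.059 over all genes tested. The 9 other BCL2 family genes had a median of 0.12, with 7 higher and 2 lower in their means. That median was 0.0022 without leptin replicate 2 and 0.055 with median-of-ratios scaling. BNIP3L, a mitochondrial receptor for mitophagy, was at 55.4 ± 14.9 FPKM in the WT and 60.4 ± 16.4 FPKM (SD, n = 3 each) in the leptin libraries. Its relative BNIP3 was at 33.2 ± 7.41 and 34.5 ± 5.23 FPKM (SD, n = 3 each). BBC3 (the gene of PUMA, a BH3-only protein), named after its values were seen, was found by identifier and was at 7.58, 4.17 and 6.96 FPKM in the WT libraries and at 8.59, 9.32 and 6.31 FPKM in the leptin libraries.

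Downstream of the effectors, the 12 apoptosome and caspase genes had a median log2 difference of -0.0045, with 5 higher and 7 lower. This median ran from -0.13 to 0.084 with one replicate left out and was -0.20 without both replicate 1 libraries. CYCS, the gene of cytochrome c, was at 13.9, 18.1 and 25.1 FPKM in the WT libraries and at 23.8, 25.6 and 25.7 FPKM in the leptin libraries, a log2 difference of 0.41 (unadjusted p = 0.0856, adjusted p = 0.993, limma). WT replicate 3 lay among the leptin values, as it did for BAX. AIFM1, which encodes another mitochondrial death factor, was at 16.3 ± 1.14 and 17.6 ± 0.816 FPKM (SD, n = 3 each). Of the inhibitor of apoptosis list, 4 genes were tested, 1 higher and 3 lower (median -0.091). The median was -0.024 without leptin replicate 2 and -0.15 with median-of-ratios scaling. BIRC2, whose product is a ubiquitin ligase that restrains death signalling, was at 24.2 ± 2.95 and 23.2 ± 0.607 FPKM (SD, n = 3 each). DIABLO, whose product is released from mitochondria and binds these inhibitors, was at 17.3 ± 0.714 and 17.5 ± 0.970 FPKM (SD, n = 3 each).

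Upstream, the 8 death receptor and adaptor genes had a median log2 difference of -0.13, with 1 higher and 7 lower, none past the test. RIPK1, a kinase at the TNF receptor, was at 114.5 ± 8.19 FPKM in the WT and 104.4 ± 4.24 FPKM (SD, n = 3 each) in the leptin libraries. TNFRSF1A, the gene of a TNF receptor, was at 97.3 ± 19.3 and 96.6 ± 24.7 FPKM (SD, n = 3 each). FASLG, the gene of the FAS ligand, named after its values were seen, was at 3.82, 2.95 and 5.28 against 2.26, 2.94 and 3.32 FPKM. It was the only gene of the 5 lists with an unadjusted p under 0.05 in limma when WT replicate 2 was left out (2.6% of all genes tested in that fit). The same held when DDX3Y was taken into the fit (1.68%). Among 15 regulators of the family proteins (8 higher, 7 lower, median 0.0039), DYNLL1, a dynein light chain that binds BH3-only proteins, was at 143.0 ± 27.4 and 133.9 ± 3.16 FPKM (SD, n = 3 each). PIM1, a kinase that phosphorylates BAD, was at 191.8, 178.1 and 75.03 FPKM in the WT libraries and at 85.8, 172.5 and 115.7 FPKM in the leptin libraries, so its range within each label was wider than the difference between them. PIM2, a related kinase named after its values were seen as the 1 gene without overlap, was at 10.8, 11.4 and 12.1 against 12.3, 12.8 and 17.4 FPKM (unadjusted p = 0.149, adjusted p = 0.993, limma).

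The table's own KEGG annotation places 5 of the 7 members (BCL2, BCL2L1, BAX, BAD and BID) in the apoptosis pathway, leaving out MCL1 and BAK1. Of the 47 tested genes with that annotation, 22 were higher and 25 lower, with a median log2 difference of -0.020, and 2 had an unadjusted p under 0.05 (background 3.18%) and 0 an adjusted p under 0.05. The most abundant genes of this annotation were MYD88, an adaptor of Toll-like receptors, at 223.2 ± 49.7 and 204.3 ± 47.1 FPKM (SD, n = 3 each), and CSF2RB, a cytokine receptor chain, at 188.5 ± 59.0 and 162.6 ± 64.1 FPKM (SD, n = 3 each). The 2 past the unadjusted threshold were TNF and NFKBIA, a ligand and a feedback inhibitor of NF-kB rather than family genes. NFKBIA was at 114.2, 72.1 and 93.4 FPKM in the WT libraries and at 144.7, 211.6 and 112.4 FPKM in the leptin libraries, a log2 difference of 0.72 (unadjusted p = 0.0263, adjusted p = 0.993, limma). Its highest library was leptin replicate 2, and WT replicate 1 lay above leptin replicate 3. TNF was at 18.4, 8.76 and 35.9 FPKM in the WT libraries and at 43.4, 47.5 and 46.6 FPKM in the leptin libraries, a log2 difference of 1.29 (unadjusted p = 0.0140, adjusted p = 0.993, limma). All leptin libraries were above all WT libraries for TNF, and the spread was wider among the WT libraries. The groups did not overlap for 2 of the 47 genes (background 7.63%), TNF and PRKACA, the latter named after its values were seen and encoding a subunit of protein kinase A, at 22.2 ± 1.96 and 24.9 ± 1.33 FPKM (SD, n = 3 each).

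**Figure D5:**
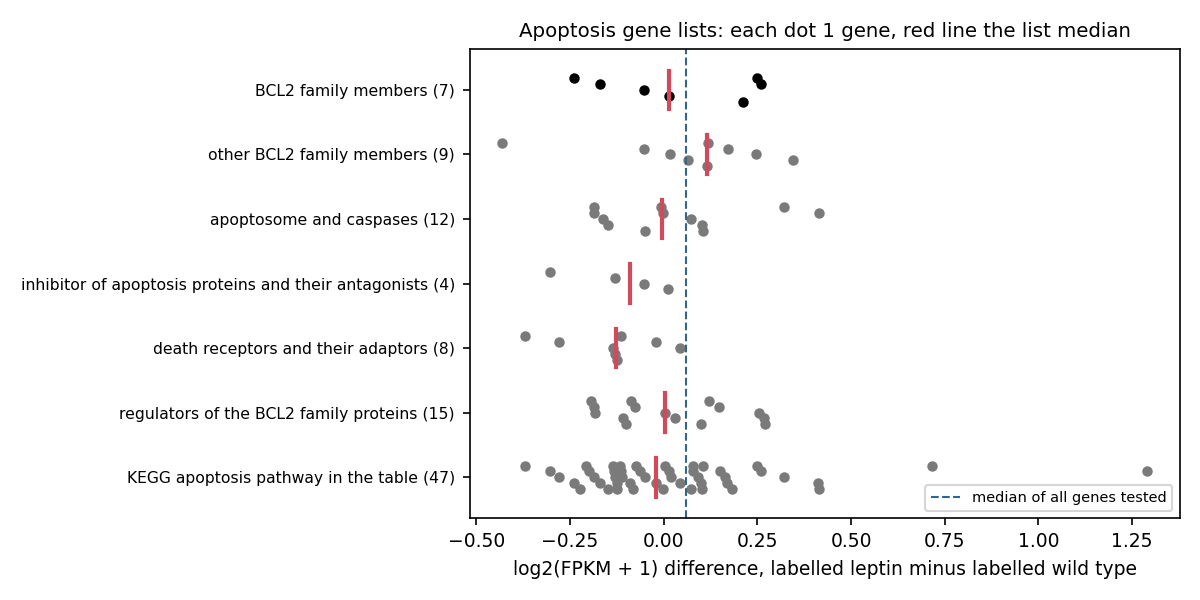
Differences in log2(FPKM + 1), leptin minus WT, for the 7 members, the 5 lists of related genes and the genes the table annotates to the KEGG apoptosis pathway. Each dot is 1 gene, the red line the median of the list, the number in brackets the genes tested and the dashed line the median of all genes tested. List medians lie between -0.13 and 0.12, and the dots at the far right of the last list are NFKBIA and TNF.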

How the data were processed

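RNA-seq libraries of PBMCs from 6 pigs were used, 3 per label. The authors deposited 1 FPKM value per gene and library. By the paper, reads were aligned with Bowtie to the Ensembl transcriptome and quantified with RSEM, whereas the submitters' processing notes name FastQC, STAR 2.5, Cuffnorm and DESeq 1.22.1. Which of these made the table is not given in the sources used here. The paper states the Ensembl release but names no assembly, so coordinates are printed as the table has them. The table also holds the authors' log2 fold change, p-value, FDR and mark, which were not used. Low values shared no step that would return whole reads, so depth is unknown and precision rests on 3 libraries per label. Columns were matched to samples by animal code, and 0 FPKM columns were left over.

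Groups were compared with limma 3.58.1 (R 4.3.3; trend and robust off, two-sided) on log2(FPKM + 1), which understates the change of low genes, for genes that reached 1 FPKM in 3 or more libraries. Exact permutation tests were made in SciPy 1.17.1 under Python 3.11.15. The 4000 rows without a symbol were matched by identifier to a table of gene names, which named 1504. Members, lists and tests were chosen with earlier results of these data known. Named genes were all members, the 2 most abundant of each list and those with an unadjusted p under 0.05. The 5 most similar to the member with the largest SD of log2(FPKM + 1) were also named. Others are marked as named after their values were seen. Alternatives covered the pseudocount, filter, scaling, variance moderation, replicate block and libraries left out; DDX3Y as a covariate was added after its values were seen. The test was first tested on simulated data. Protein and promoter sequences were not used here.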

Additional observations from a re-analysis of the deposited data

How the results depend on the processing

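Across the alternatives run, the count of members with an adjusted or unadjusted p under 0.05 stayed at 0 (limma), and the differences of BAD, BAK1, BAX and PMAIP1 kept their sign but not their size. MCL1 was at 0.17 and BCL2L1 at -0.081 without both replicate 1 libraries, and BCL2L1 was at -0.049 with median-of-ratios scaling, which moved the median of all genes from 0.059 to 0.0022. With one replicate left out, MCL1 ranged from -0.14 to 0.057, BCL2L1 from -0.052 to 0.13, BCL2 from -0.36 to 0.14, BID from -0.46 to 0.079, BAD from 0.10 to 0.35, BAK1 from 0.11 to 0.29, BAX from 0.089 to 0.40 and PMAIP1 from 0.26 to 0.61. Members whose groups did not overlap numbered 0 to 2 with one replicate left out (12.3% to 26.8% of all genes) and 3 (MCL1, BAD and BAK1) without both replicate 1 libraries, where 25.9% of all genes did so. BCL2 was not tested when every library had to reach 1 FPKM. With one replicate left out, the median of the regulator list ran from -0.072 to 0.067. That of the KEGG annotation ran from -0.036 to 0.021. Depth is unknown, so the limit it sets cannot be given. The cause of these changes was not tested.

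Over the whole table, the count of higher genes at an adjusted p under 0.05 was 1, and it was 0 when every library had to reach 1 FPKM, 0 without moderation, 0 without both replicate 1 libraries and 2 with the replicate block. Leaving out each replicate in turn gave 0 to 2, and the count of lower genes from 0 to 2. Genes at an unadjusted p under 0.05 numbered 341 (180 with DDX3Y as a covariate, 247 to 846 with one replicate left out, the most without WT replicate 3). Pathway genes at that p numbered 0, with 1 (FASLG) with DDX3Y as a covariate (1.68% of all genes), 1 (FADD) without both replicate 1 libraries (2.32%) and 0 to 4 with one replicate left out, where the 4 without WT replicate 3 were BCL2L15, USP9X, CYCS and CASP6 (7.99% of all genes). The replicate block changed no member's call, and PMAIP1 had its lowest unadjusted p there (0.0328, adjusted p at least 0.635 over the alternatives, limma). Same-numbered libraries did not pair, with correlations of deviations of -0.284, 0.135 and -0.007.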
